A study of Mus musculus with 16 samples.

Results

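Intergenic circular RNAs (circRNAs) are those that the deposited count table lists with the type intergenic, that is, with no host gene in the annotation the authors used. The table listed 10822 of them among 68854 circRNAs, and 1913 had a count in at least 1 library, of 40381 circRNAs with a count. Back-splice reads were counted in 16 libraries from hearts of male C57BL/6 mice. Sham (3 libraries) was the control without ischaemia. MIRI, myocardial ischaemia and reperfusion injury (3 libraries), had the left anterior descending coronary artery tied for 30 min and the heart taken after 1 week of reperfusion. MIRI+AICAR (5 libraries) and MIRI+Compound C (5 libraries) had the same injury with AICAR, an activator of the energy-sensing kinase AMPK, or with Compound C, an inhibitor of it. Doses are not given in the labels, and the design names 8 mice per group, 32 in all, without saying how they became 16 libraries. No label states that replicates come from different mice, and p-values thus rest on a spread among libraries that may be technical.

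A circRNA forms when the spliceosome joins the end of an exon to the start of the same or an earlier exon, which gives a closed ring without free ends. Rings resist the exonuclease RNase R, which was used here to digest linear RNA, and they are counted by reads that cross the back-splice junction. Most known circRNAs come from exons of protein-coding genes. Rings called intergenic can arise from long non-coding RNAs, from transcribed pseudogenes or from transcripts that no annotation holds. A join between similar sequences of a pair of genes can also be called as a back-splice. Cardiac muscle cell is the labelled cell type, no isolation is described, and the host genes of the circRNAs included markers of other cells of the heart. All 10 cardiomyocyte genes looked for had a circRNA with a count, as did 8 of 8 leukocyte and 7 of 7 endothelial genes, while Tcf21 and Postn of 7 fibroblast and matrix genes, Itga2b and Pf4 of 6 platelet genes and Slc4a1 of 4 erythroid genes had none. In bulk tissue, fewer cells of a type and less RNA per cell cannot be told apart.

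Total counts ran from 119948 to 240889 per library, of which intergenic circRNAs held 2703 in Sham replicate 1, the smallest library. MIRI replicate 1 and MIRI+AICAR replicate 5 stood apart in 4 platelet-type host genes, at 13963 and 4137 CPM (counts per 1000000), against 716 to 1129 in the other 14 libraries. No count of 1 occurs in the table, so a circRNA listed at 0 may have had 1 read.

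The sequences that carry the main findings are shown first, on GRCm38 and 5′ to 3′. The most abundant intergenic circRNA, novel_circ_021121, covers 246 of the 319 bases of Rpph1, the RNA of ribonuclease P, a ribozyme that trims the 5′ ends of transfer RNAs. The shared bases are printed on the strand of Rpph1 (chr14:50807449-50807694, minus strand), with 20 bases at each end in capitals. The first printed base is at the back-splice junction, and the ring runs 3 bases past the last, beyond the Rpph1 transcript. The ring also lies wholly inside Ccnb1ip1, a protein-coding gene on the same strand as Rpph1. Whether its reads came from Rpph1 or from Ccnb1ip1 was not tested, and it is called the Rpph1 ring below.
Rpph1 bases inside novel_circ_021121: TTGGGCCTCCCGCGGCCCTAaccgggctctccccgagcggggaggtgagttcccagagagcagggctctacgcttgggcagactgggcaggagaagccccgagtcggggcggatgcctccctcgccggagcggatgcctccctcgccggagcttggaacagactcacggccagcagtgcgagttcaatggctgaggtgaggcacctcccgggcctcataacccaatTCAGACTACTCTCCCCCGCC

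The next but one in abundance, novel_circ_019686 (chr14:54963896-54991994, minus strand), joins the end of exon 4 of Myh6 to the start of exon 6 of Myh7. These neighbouring genes encode the alpha and beta myosin heavy chains, the motor proteins of the sarcomere, and are near copies of each other. The 40 bases on each side of the join are shown with the bases at the same place in the other gene, and capitals mark the 2 bases in each pair that differ.
Myh6 exon 4 end (chr14:54963896-54963935): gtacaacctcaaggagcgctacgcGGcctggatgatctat
Myh7 exon 5 end (chr14:54992240-54992279): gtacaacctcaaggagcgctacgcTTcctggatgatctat
Myh7 exon 6 start (chr14:54991955-54991994): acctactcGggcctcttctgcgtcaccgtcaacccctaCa
Myh6 exon 5 start (chr14:54963619-54963658): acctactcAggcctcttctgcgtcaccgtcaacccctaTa

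The next junctions show how rings of a locus share their ends. Each is written as the last 30 bases of the ring in lower case, then the first 30 in capitals, with the start set as explained below. In Lncpint, a long non-coding RNA gene known as a target of p53, 2 starts and 2 ends combine into 4 rings, so that each printed flank is seen in 2 of them. In Nlrp5-ps, a transcribed pseudogene of the NLR family, the rings begin 4 bases apart. The Pvt1 ring lies in the long non-coding RNA gene beside the oncogene Myc, and novel_circ_065428 was called between the treatments.
novel_circ_052626, Lncpint (chr6:31166476-31181149, minus strand): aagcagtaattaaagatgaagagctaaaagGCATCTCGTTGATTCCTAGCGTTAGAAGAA
novel_circ_052623, Lncpint (chr6:31139729-31197851, minus strand): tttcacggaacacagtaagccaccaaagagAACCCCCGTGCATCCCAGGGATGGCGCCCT
novel_circ_052622, Lncpint (chr6:31139729-31181149, minus strand): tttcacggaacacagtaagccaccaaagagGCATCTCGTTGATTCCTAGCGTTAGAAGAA
novel_circ_052627, Lncpint (chr6:31166476-31197851, minus strand): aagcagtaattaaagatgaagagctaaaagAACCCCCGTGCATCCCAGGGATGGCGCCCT
novel_circ_055938, Nlrp5-ps (chr7:14578736-14609335, minus strand): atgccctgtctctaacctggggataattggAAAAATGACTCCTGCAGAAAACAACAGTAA
novel_circ_055952, Nlrp5-ps (chr7:14607240-14609339, minus strand): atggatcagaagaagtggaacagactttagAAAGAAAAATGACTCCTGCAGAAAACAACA
novel_circ_023843, Pvt1 (chr15:62107148-62107465, plus strand): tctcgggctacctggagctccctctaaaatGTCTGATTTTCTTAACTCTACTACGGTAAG
novel_circ_065428, 3110039I08Rik (chr9:41475006-41528200, plus strand): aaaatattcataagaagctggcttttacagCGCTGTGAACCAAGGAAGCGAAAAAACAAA

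Measured against GENCODE M21, most intergenic circRNAs did not lie outside genes. Of the 1913 with a count, 708 lay inside a gene on their own strand and held 48.9% of the intergenic counts. The gene was long non-coding for 533, protein-coding for 133 and a pseudogene for 40. A ring inside genes of several types was counted as protein-coding first, then long non-coding, then pseudogene. A further 90 had their ends in 2 different genes, 263 had 1 end in a gene and 41 spanned a gene. For 510, the genes lay on the opposite strand only, and these held 26.2% of the counts, most of them on the Rpph1 ring. The 295 with no gene on either strand held 10.6% of the counts and lay a median of 23139 bases from the nearest gene, of which 82 were within 10000 bases. The remaining 6 were on unplaced scaffolds without annotation. The rings inside a gene on their own strand lay in 234 genes. Of the rings with genes on the opposite strand only, those wholly inside a gene lay in 273 genes. A gene such as Malat1 can be in both numbers.

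**Figure D1:**
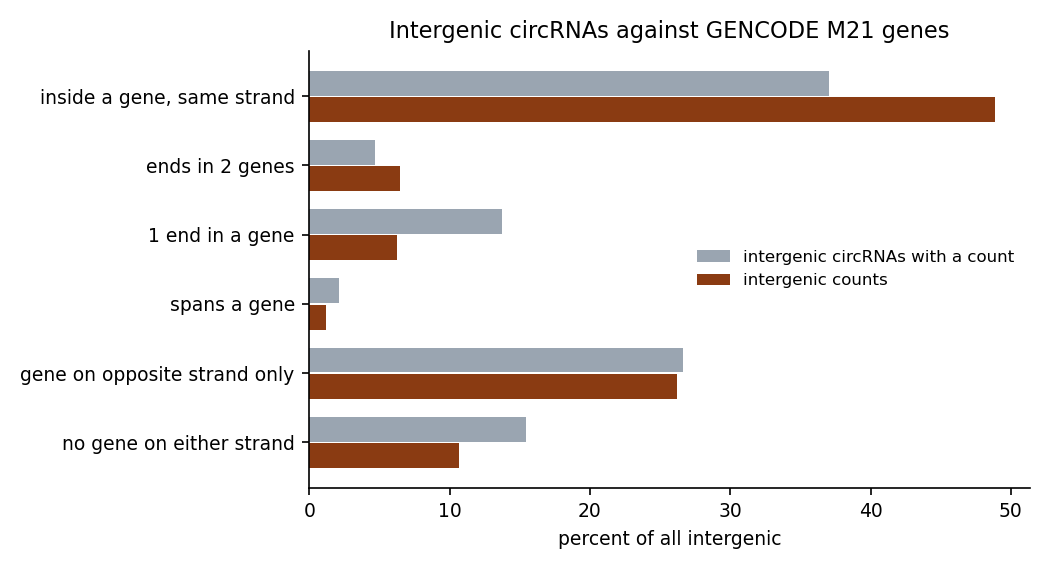
Percent of the 1913 intergenic circRNAs with a count (grey) and of the 57372 intergenic counts (brown) by their place relative to GENCODE M21 genes. The bars for circRNAs inside a gene on their strand stand at 37.0% and 48.9%, and those for no gene on either strand at 15.4% and 10.6%.

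Both ends lay exactly on exon boundaries in 158 intergenic circRNAs, 8.26%, against 93.5% of the 35293 exonic ones. In 269 intergenic circRNAs the listed start was 1 base before an exon start, which was so in 62 exonic ones, and 181 of these 269 had their end on a boundary. Allowing for that base, 339 intergenic circRNAs, 17.7%, joined annotated exons, among them 179 of the 533 inside long non-coding genes. A start 1 base early occurred on both strands, in 155 plus-strand and 114 minus-strand circRNAs. Introns begin with GT and end with AG, and CIRI, the caller used by the authors, keeps junctions with this signal, so its presence is no finding. In the 547 intergenic circRNAs whose flanking bases could be read from transcripts, the signal stood at the listed ends in 362 and at a start moved by 1 base in 184. The remaining 1 had it at neither place. Junctions above are therefore printed with the start moved by 1 base where the signal was there, which leaves listed lengths 1 base too long for those rings.

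CIRI takes the strand from the splice signal, so the strand in the table need not be the strand that was transcribed. This bears on the Rpph1 ring, listed on the plus strand while Rpph1 is on the minus strand, and on 29 plus-strand rings over Malat1, a minus-strand gene.

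Intergenic circRNAs were rarer and less recurrent than exonic ones. They made up 4.74% of circRNAs with a count and 2.08% of counts, while exonic circRNAs made up 87.4% and 95.4%. A single library held 1078 of the 1913, 56.4%, against 34.0% of exonic circRNAs, and 759 had a total of 2 counts. At the other end, 63 were present in all 16 libraries and held 59.2% of the intergenic counts. Within a library, an intergenic circRNA with a count had 9.41 ± 0.487 counts (SD, n = 16 libraries) and an exonic one 13.2 ± 0.949, lower in 16 of 16 libraries (permutation p by sign flips over libraries = 3.05e-05, adjusted over 3 measures 3.05e-05, the smallest this test can give). The lowest count of 2 was held by 36.8% ± 3.16 of detected intergenic circRNAs and 25.9% ± 1.36 of exonic ones, higher in 16 of 16 libraries (permutation p = 3.05e-05, adjusted 3.05e-05). Intronic circRNAs, another class with few counts, had 5.97 ± 0.841 counts each, fewer than intergenic ones in 16 of 16 libraries (permutation p = 3.05e-05, adjusted 4.58e-05). The median total over all libraries was 3 in both classes. Without its 10 most abundant members the intergenic mean was 5.56 ± 0.320 counts. Exon-intron circRNAs, with 2.25% of counts and 46.6% of members in a single library, were not compared in this way. Libraries share most abundant members, so these tests speak of these libraries and not of other hearts.

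Listed spliced lengths of intergenic circRNAs with a count ran from 136 to 177827 nucleotides, with a median of 5903 and quartiles of 1219 and 24014, against a median of 526 in exonic circRNAs. Long listed lengths were not particular to this class. Exon-intron circRNAs had a median of 4593 nucleotides, quartiles of 1271 and 14224 and a maximum of 195001. The listed length equals the genomic span in all 10822 intergenic rows, since no exons are known to the table inside them, whereas in exonic circRNAs it did so in 3.06%. The median listed length per library was 8486 ± 1282 nucleotides for intergenic and 491 ± 16.6 for exonic circRNAs (SD, n = 16; permutation p = 3.05e-05, adjusted 3.05e-05). Compared by genomic span, which was chosen after seeing the data, exonic circRNAs stood at 8100.0 ± 392, intergenic ones were longer in 9 of 16 libraries, and the permutation p was 0.169. The difference in listed length therefore did not hold for the span. The 430 intergenic circRNAs under 1000 nucleotides held 34.3% of the counts, 16.8% on the main Rpph1 ring alone, and the 50 of 100000 or more held 0.695%. The longest, novel_circ_018906 of 177827 nucleotides, lay inside Pde4d, a phosphodiesterase gene that degrades cyclic AMP in the heart, with 23 counts in 8 libraries. The shortest, novel_circ_019499 of 136, lay inside Rpph1 and Ccnb1ip1 on its own strand, with 2 counts in MIRI+AICAR replicate 5.

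**Figure D2:**
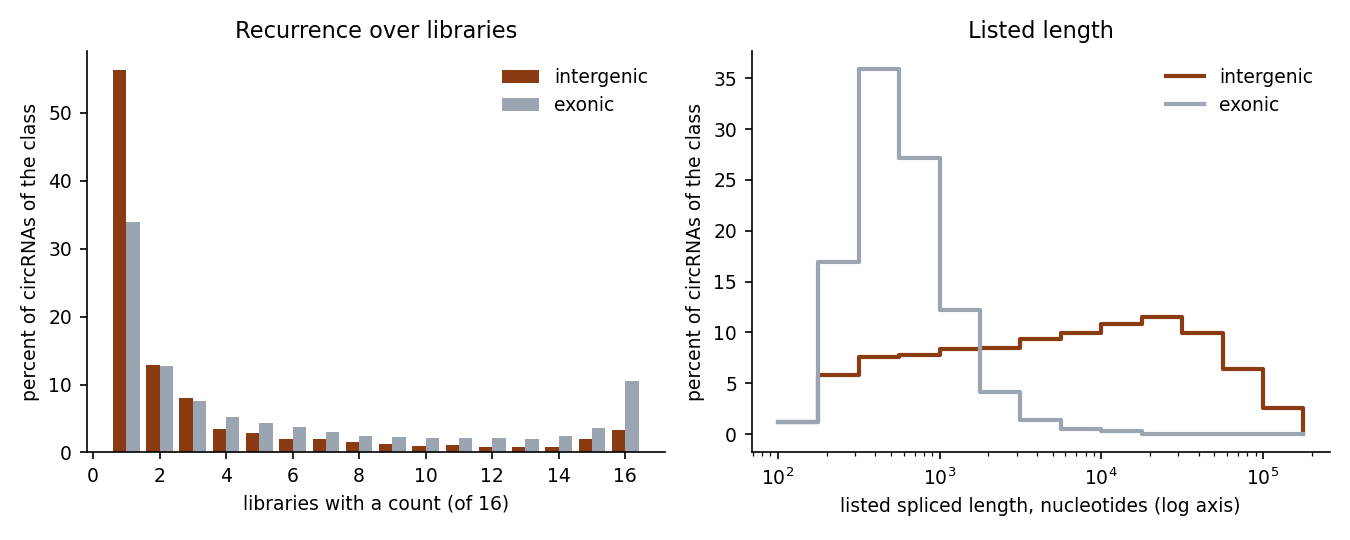
Left, percent of intergenic (brown) and exonic (grey) circRNAs with a count in 1 to 16 libraries. Right, percent of each class by listed spliced length on a log axis. Intergenic lengths are genomic spans, with a median of 5903 against 526 nucleotides. Exon-intron circRNAs, with a median of 4593, are not drawn.

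Chromosomes 14 and 6 held 24.7% and 11.3% of the intergenic counts. Chromosome 14 carries the Rpph1 and myosin loci and chromosome 6 carries Lncpint. By number, chromosome 19 stood out with 178 circRNAs, 9.30% of the intergenic ones against 3.22% of exonic ones, and 132 of the 178 lay over Malat1. Chromosome 8 held 43, 2.25% against 4.76% of exonic ones. Chained by overlapping spans on a strand, the 1913 circRNAs fell into 956 loci, 699 of them with 1 circRNA, and the top 3 loci held 29.5% of the counts.

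The Rpph1 locus held 17.5% of all intergenic counts in 3 plus-strand rings. novel_circ_021121 (249 nucleotides) had 534, 586 and 548 counts in the Sham libraries and 505, 530 and 565 in those of MIRI, with 568, 540, 782, 865 and 747 in MIRI+AICAR libraries and 489, 573, 585, 718 and 530 in MIRI+Compound C libraries. Scaled to depth, the groups overlapped, with 4226 ± 503 CPM (here TMM-scaled) for Sham and 3988 ± 801 for MIRI (SD, n = 3 each), 3901 ± 444 for MIRI+AICAR and 3815 ± 369 for MIRI+Compound C (n = 5 each). Its log2 differences in the 4 comparisons lay between -0.08 and 0.03, with SE from 0.11 to 0.15. The ring novel_circ_021120 shares its start, ends 22 bases earlier, and had 364 counts over 16 libraries. Another ring, novel_circ_021122, was seen in 1 library.

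Among long non-coding hosts, Lncpint held 23 rings and 3343 counts, Pvt1 held 24 and 2418, and Malat1, a nuclear RNA of splicing speckles, held 103 and 1214. The Lncpint locus had 6 rings in all 16 libraries, and its ends were reused. The end at 31181149 was shared by 8 rings with 58.3% of the counts of the locus, and the end at 31197851 by 7 rings with 36.9%. The most abundant, novel_circ_052626, had 59, 69 and 44 counts in the Sham libraries and 57, 50 and 51 in those of MIRI, with 61, 74, 61, 77 and 60 in MIRI+AICAR libraries and 62, 62, 70, 66 and 47 in MIRI+Compound C libraries. On the CPM scale its values overlapped between all groups. In novel_circ_052623 every MIRI library stood above every Sham library, at 281 ± 66.7 against 181 ± 18.1 CPM (SD, n = 3 each). So it was in novel_circ_052622, at 278 ± 36.4 against 191 ± 33.2 CPM. In novel_circ_052627 these groups overlapped, and in novel_circ_052630 of the same locus every MIRI library was lower. None of the 4 Lncpint rings printed above was called in edgeR (adjusted p from 0.682 to 0.999).

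The Pvt1 ring novel_circ_023843 was 89.1% of the Pvt1 counts. It had 80, 125 and 81 counts in the Sham libraries and 92, 114 and 124 in those of MIRI, with 187, 177, 197, 181 and 225 in MIRI+AICAR libraries and 93, 124, 124, 126 and 104 in MIRI+Compound C libraries. On the CPM scale every MIRI+AICAR library, 1097 ± 181 (SD, n = 5), stood above every MIRI+Compound C library, 751 ± 32.3 (n = 5). The difference of 0.54 on the log2 scale (SE 0.15) was not called in edgeR's fit over all circRNAs (adjusted p = 0.124). It was called by DESeq2 and with only these groups in the fit.

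The 132 rings over Malat1 held 1936 counts, and 93 of them, 70.5%, were seen in 1 library. A single one, novel_circ_033596, was present in all 16 libraries. Several others were abundant in a few libraries and listed at 0 in the rest. novel_circ_031996 had 72 counts in Sham replicate 1, 51 and 55 in MIRI+Compound C replicates 1 and 5, and 0 in the other 13 libraries. It was thus present in 1 of 3 Sham and 2 of 5 MIRI+Compound C libraries and in none of MIRI or MIRI+AICAR, and was not called in edgeR (adjusted p = 0.525 for MIRI against Sham, 0.536 for MIRI+Compound C against MIRI and 0.143 between the treatments), whereas DESeq2 called it in these 3 comparisons. novel_circ_032065, named after its values were seen, had 52 counts in MIRI replicate 2, 48 in MIRI+Compound C replicate 2, and 2 and 49 in MIRI+AICAR replicates 4 and 5. Of the 9 Malat1 rings with at least 50 counts, 4 were seen in 5 libraries or fewer.

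Pseudogenes gave 3 of the 10 most abundant intergenic circRNAs. The Nlrp5-ps ring novel_circ_055938 had 73, 104 and 191 counts in the Sham libraries and 119, 141 and 95 in those of MIRI, with 253, 194, 191, 336 and 227 in MIRI+AICAR libraries and 66, 198, 204, 175 and 170 in MIRI+Compound C libraries. Its MIRI+AICAR level of 1347 ± 272 CPM lay above that of MIRI, 864 ± 38.6, in every library (log2 0.64, SE 0.23, edgeR adjusted p = 0.886, not called). The second, novel_circ_001438, lies in C4bp-ps1, a pseudogene of a complement regulator, which overlaps the protein-coding gene Gm29427. Because it is inside both, this ring was counted as protein-coding in the gene types above. It had 63, 104 and 98 counts in the Sham libraries and 85, 91 and 88 in those of MIRI, with 87, 89, 165, 127 and 106 in MIRI+AICAR libraries and 74, 107, 134, 156 and 51 in MIRI+Compound C libraries, and the groups overlapped in all comparisons.

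The last of these, novel_circ_041393, lies in the processed pseudogene Gm9762, an intronless copy of a messenger RNA. All 374 of its bases are also in transcripts of Ube2d2a, a ubiquitin-conjugating enzyme gene on chromosome 18, where they run exactly from the start of exon 2 to the end of exon 6. Reads of either origin cannot be told apart by these bases. It had 41, 49 and 0 counts in the Sham libraries and 91, 79 and 51 in those of MIRI, with 107, 69, 133, 130 and 108 in MIRI+AICAR libraries and 51, 73, 79, 80 and 59 in MIRI+Compound C libraries. The MIRI libraries stood above the Sham libraries, of which replicate 3 was listed at 0 (log2 1.20, SE 0.44, edgeR adjusted p = 0.523). Of 911 intergenic circRNAs whose 25 bases at each end could be read, 10 had both ends in transcripts of another gene.

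**Figure D3:**
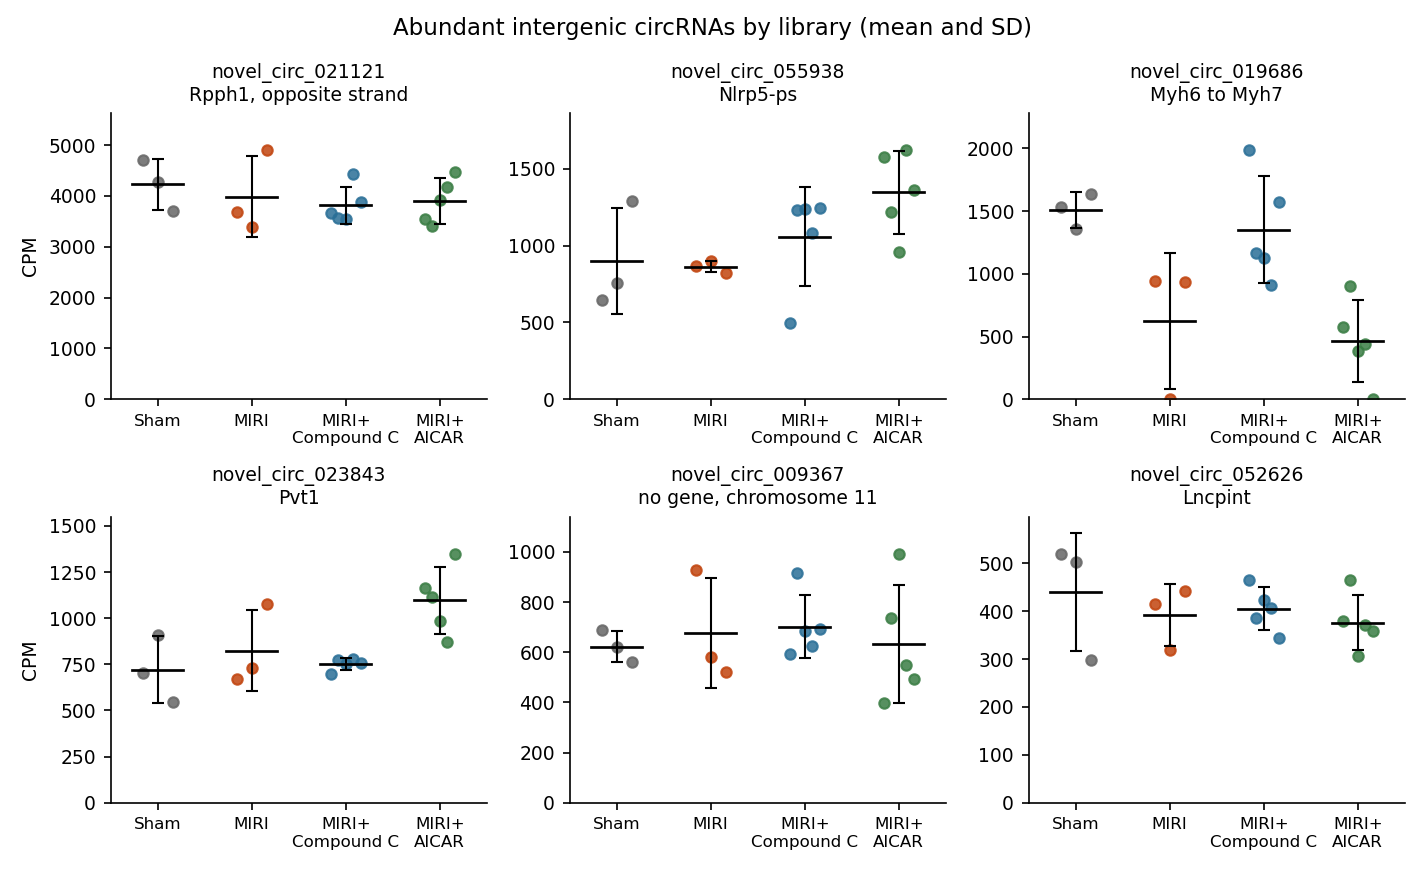
CPM of 6 of the 10 most abundant intergenic circRNAs in each of the 16 libraries, with the group mean (line) and SD (bar); a bar is drawn only above 0. The Myh6 to Myh7 ring is listed at 0 in MIRI replicate 2 and MIRI+AICAR replicate 5, and the Rpph1 ring overlaps across the 4 groups.

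Joins between Myh6 and Myh7 made up 18 intergenic circRNAs with 2933 counts, 5.11% of the intergenic total. Of these, 12 had both ends on exon boundaries, with 2912 counts. In 9 of the 12, holding 98.9% of the counts, an exon of Myh6 was joined to the Myh7 exon that is most alike to the next exon of Myh6, as in the linear order of splicing. The first 30 bases of the Myh7 exons were 90.0% to 100% identical to those of the matching Myh6 exons, with a median of 96.7%. Reads of the ordinary Myh6 splice and of these joins thus differ at few bases. Whether reads were assigned to the wrong gene was not tested, and these rings are reported as uncertain.

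The main join, novel_circ_019686, had 174, 186 and 242 counts in the Sham libraries and 129, 0 and 108 in those of MIRI, with 93, 143, 77, 92 and 0 in MIRI+AICAR libraries and 265, 188, 186, 148 and 215 in MIRI+Compound C libraries. On the CPM scale all Sham libraries, 1508 ± 141 (n = 3), stood above all MIRI libraries, 626 ± 542 (n = 3), and all MIRI+Compound C libraries, 1353 ± 426 (n = 5), above all MIRI+AICAR libraries, 462 ± 326 (n = 5). Neither difference was called in edgeR: a log2 difference of -1.30 (SE 0.65, adjusted p = 0.745) for MIRI against Sham, and of -1.55 (SE 0.50, adjusted p = 0.221) for MIRI+AICAR against MIRI+Compound C. Among circRNAs with a median of at least 20 counts, 3 of 20 intergenic ones and 85 of 1355 exonic ones, 6.27%, were listed at 0 in some library.

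Rings with no gene on either strand were led by novel_circ_009367 on chromosome 11 (65555028 to 65557142, minus strand), 69252 bases from the nearest annotated gene. It had 78, 85 and 83 counts in the Sham libraries and 127, 91 and 60 in those of MIRI, with 64, 117, 198, 114 and 82 in MIRI+AICAR libraries and 79, 147, 113, 101 and 95 in MIRI+Compound C libraries, with all groups overlapping. The other members of the 10 were novel_circ_054612, which lies opposite to the gene Gm4877 with 1080 counts, and novel_circ_007731 in Gm4924 with 975.

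The share of all counts on intergenic circRNAs was compared between groups by exact permutation tests. Sham libraries had 2.25%, 2.12% and 1.98%, and those of MIRI 2.04%, 1.92% and 2.23%. MIRI+AICAR libraries had 2.04%, 2.05%, 2.00%, 2.07% and 2.08%, and MIRI+Compound C libraries 2.13%, 2.11%, 2.12%, 2.18% and 2.10%. Every MIRI+AICAR library lay below every MIRI+Compound C library, while Sham and MIRI spread over both. The means were 2.05% ± 0.0310 and 2.13% ± 0.0314 (SD, n = 5 each), a difference of -0.0806 percentage points (exact permutation p = 0.00794, the smallest possible, adjusted over 4 comparisons 0.0317). MIRI against Sham differed by -0.0546 points (exact permutation p = 0.70; the smallest that 3 libraries a group allow is 0.10), MIRI+AICAR against MIRI by -0.0162 (exact permutation p = 0.804) and MIRI+Compound C against MIRI by 0.0644 (exact permutation p = 0.411), each with an adjusted p of 0.804.

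The parts of the class did not all follow this difference. Rings inside a gene on their own strand held 1.06% ± 0.0273 of all counts in MIRI+AICAR libraries (1.035% to 1.097%). Every MIRI+Compound C library lay below these, at 0.972% ± 0.0465 (0.913% to 1.030%). Rings with genes on the opposite strand only were lower on average with AICAR, at 0.518% against 0.569%, but overlapped. The Myh6 to Myh7 joins were also lower on average with AICAR. They held 0.0611% ± 0.0305 of all counts in the MIRI+AICAR libraries and 0.158% ± 0.0486 in those with Compound C (SD, n = 5 each), beside 0.162% ± 0.0212 for Sham and 0.0718% ± 0.0502 for MIRI (n = 3 each). With the 18 joins left out, a choice made after seeing the data, the difference between the treatments was 0.0142 points. Leaving out a part that is itself lower with AICAR had to shift the difference upward, so this value tests no cause. With only circRNAs that passed the filter of the fit it was -0.0309 (exact permutation p = 0.198). Summed levels of fibroblast and matrix, erythroid and cardiomyocyte host genes overlapped between these groups. They were 196 to 267, 225 to 341 and 27751 to 38404 CPM of all counts in MIRI+AICAR libraries. In MIRI+Compound C libraries they were 56.9 to 331, 208 to 361 and 27098 to 43648. Those of endothelial, leukocyte and platelet-type genes did not overlap. Endothelial genes summed to 1849 to 2604 CPM of all counts in MIRI+AICAR libraries and 2629.9 to 3995 in MIRI+Compound C libraries. Leukocyte genes summed to 2526 to 3394 and 2026 to 2393 in the same order, and platelet-type genes to 1016 to 4137 and 716 to 933. Their part in the share was not tested.

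**Figure D4:**
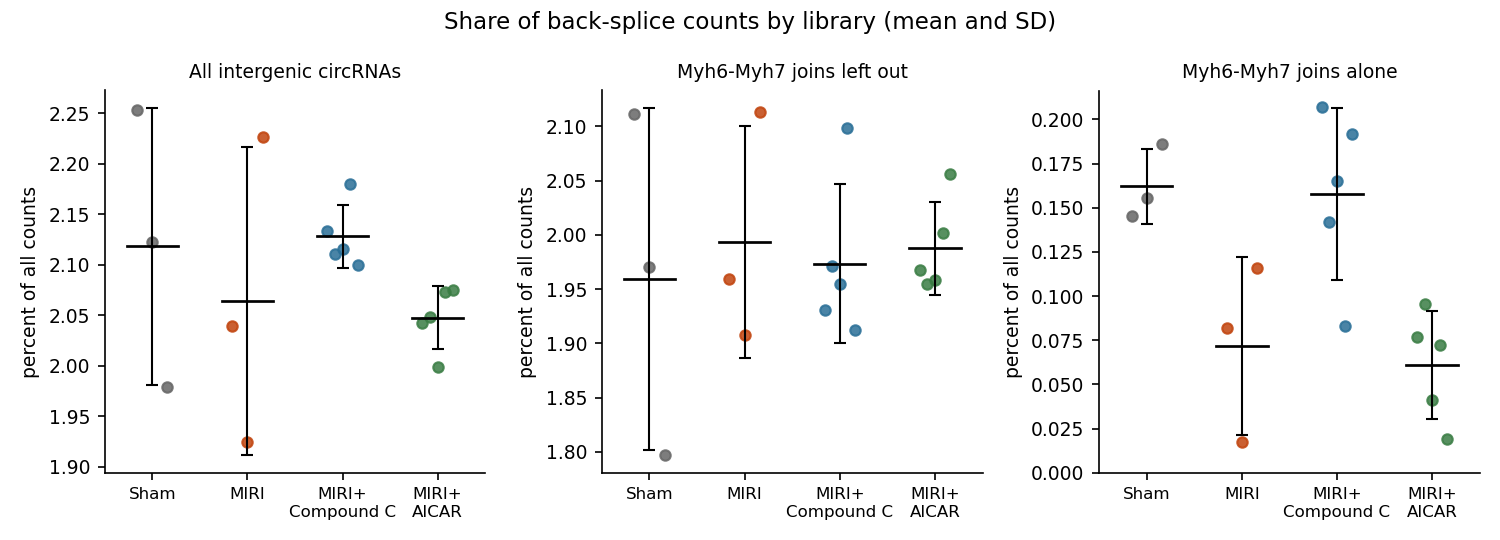
Percent of all back-splice counts on intergenic circRNAs (left), on those left after removing the Myh6-Myh7 joins (middle) and on the joins alone (right), by library, with the group mean (line) and SD (bar); the left and middle axes do not start at 0. MIRI+AICAR lies below MIRI+Compound C on the left, at 2.05% against 2.13%, and overlaps it in the middle.

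After thinning every library to 119948 counts, 322 ± 19.7 intergenic circRNAs were detected in Sham libraries and 333 ± 36.7 in those of MIRI (SD, n = 3 each), 386 ± 27.8 in MIRI+AICAR libraries and 376 ± 39.8 in MIRI+Compound C libraries (n = 5 each). The single libraries ran from 294 in MIRI replicate 3 to 428 in MIRI+AICAR replicate 4. All groups overlapped except Sham, at 300 to 337, and MIRI+AICAR, at 355 to 428, which were not tested against each other. The difference of 53.5 between MIRI+AICAR and MIRI had an exact permutation p of 0.0536 and an adjusted p of 0.214, and adjusted p-values of the other comparisons ran from 0.357 to 0.80. Since the table has no count of 1, thinning makes such counts in deep libraries only. With at least 2 counts required, the difference of MIRI+AICAR from MIRI+Compound C was -24.6 (exact permutation p = 0.00794, adjusted 0.0317), against 10 in the first count.

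For single circRNAs, 181 of the 1913 passed the filter on low counts and held 81.8% of the intergenic counts. They were tested among 7917 circRNAs with edgeR's quasi-likelihood test, and a call needs a Benjamini-Hochberg adjusted p under 0.05. In MIRI against Sham, 0 of 181 were called, against 0.0253% of all tested circRNAs, and 21 had an unadjusted p under 0.05 against 6.82% of all. DESeq2 called 1 and voom 0. In MIRI+AICAR against MIRI, 0 were called, against 0.0253% of all, 17 had an unadjusted p under 0.05 against 4.9% of all, and DESeq2 and voom called 0. In MIRI+Compound C against MIRI, 0 were called, against 0.0884% of all, 23 had an unadjusted p under 0.05 against 6.47% of all, DESeq2 called 1 and voom 0. In MIRI+AICAR against MIRI+Compound C, 3 of 181 were called, against 0.556% of all, 30 had an unadjusted p under 0.05 against 8.51% of all, DESeq2 called 4 and voom 2. As percents of the 181, those with an unadjusted p under 0.05 were 11.6%, 9.39%, 12.7% and 16.6% in the order of these comparisons. The 3 calls between the treatments were 1.66% of the 181. Median log2 differences of the 181 were 0.02, -0.08, -0.03 and 0.00 in the same order. Over all tested circRNAs they were 0.03, 0.03, 0.01 and 0.03. A member could pass the filter through the group where it is high, so these shares say nothing of the members that did not pass. DESeq2 gave an adjusted p for 44 of the 181 in both comparisons that include MIRI+Compound C, and for 180 in each of the others.

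The 3 circRNAs called between the treatments were a ring in a pair of overlapping non-coding genes, a ring with an end in a centrosome gene, and a ring in 6530403H02Rik. The endothelial, leukocyte and platelet-type host genes given above also separate these groups, and depth was higher with AICAR, at 178086 to 240889 total counts against 140677 to 187227. Their part in the calls was not tested. novel_circ_065428, in 3110039I08Rik and Gm49317 on chromosome 9, had 12, 26, 19, 15 and 9 counts in MIRI+Compound C libraries, and 43, 44, 53, 44 and 40 in the MIRI+AICAR libraries. Sham libraries had 17, 23 and 13 counts and those of MIRI 23, 45 and 16. All MIRI+AICAR libraries stood above all MIRI+Compound C libraries, at 252 ± 26.4 against 105 ± 36.2 CPM. It rose by 1.24 on the log2 scale (SE 0.25, edgeR adjusted p = 0.0127) and was also called by DESeq2 and voom. Without MIRI+Compound C replicate 5 or MIRI+AICAR replicate 3 the adjusted p was 0.0611 or 0.0531.

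novel_circ_005567 (chromosome 10, 53348472 to 53380724, minus strand) has 1 end on an exon boundary of Cep85l, a centrosome protein gene, and the other end outside genes of its strand. It had 11, 8, 20, 14 and 12 counts in MIRI+Compound C libraries, and 4, 5, 3, 4 and 2 in the MIRI+AICAR libraries. Sham libraries had 3, 9 and 5 counts and those of MIRI 3, 3 and 5. The treated groups did not overlap, at 85.5 ± 25.3 and 20.5 ± 7.80 CPM. It fell by 2.04 on the log2 scale in MIRI+AICAR (SE 0.40, edgeR adjusted p = 0.0104). Against MIRI, the MIRI+Compound C level was higher in all libraries (log2 1.63, SE 0.48) but was not called (adjusted p = 0.304). Without MIRI+Compound C replicate 3 or MIRI+AICAR replicate 3 the adjusted p of the first was 0.0588 or 0.0531.

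novel_circ_042024 lies in the gene 6530403H02Rik on chromosome 3 (120772681 to 120799747, minus strand). It had 0, 0, 2, 2 and 0 counts in MIRI+Compound C libraries, and 10, 11, 12, 11 and 7 in the MIRI+AICAR libraries. Sham libraries had 2, 6 and 0 counts and those of MIRI 13, 8 and 3. MIRI+Compound C was below every MIRI+AICAR and every MIRI library, and its difference from MIRI was not called (edgeR adjusted p = 0.143). It rose by 3.26 on the log2 scale in MIRI+AICAR against MIRI+Compound C (SE 0.70, edgeR adjusted p = 0.0218), a value that rests on 4 counts in the lower group. The adjusted p was 0.0849 with voom, and from 0.0306 to 0.0781 when single libraries were left out, above 0.05 in 6 of 10 such fits.

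**Figure D5:**
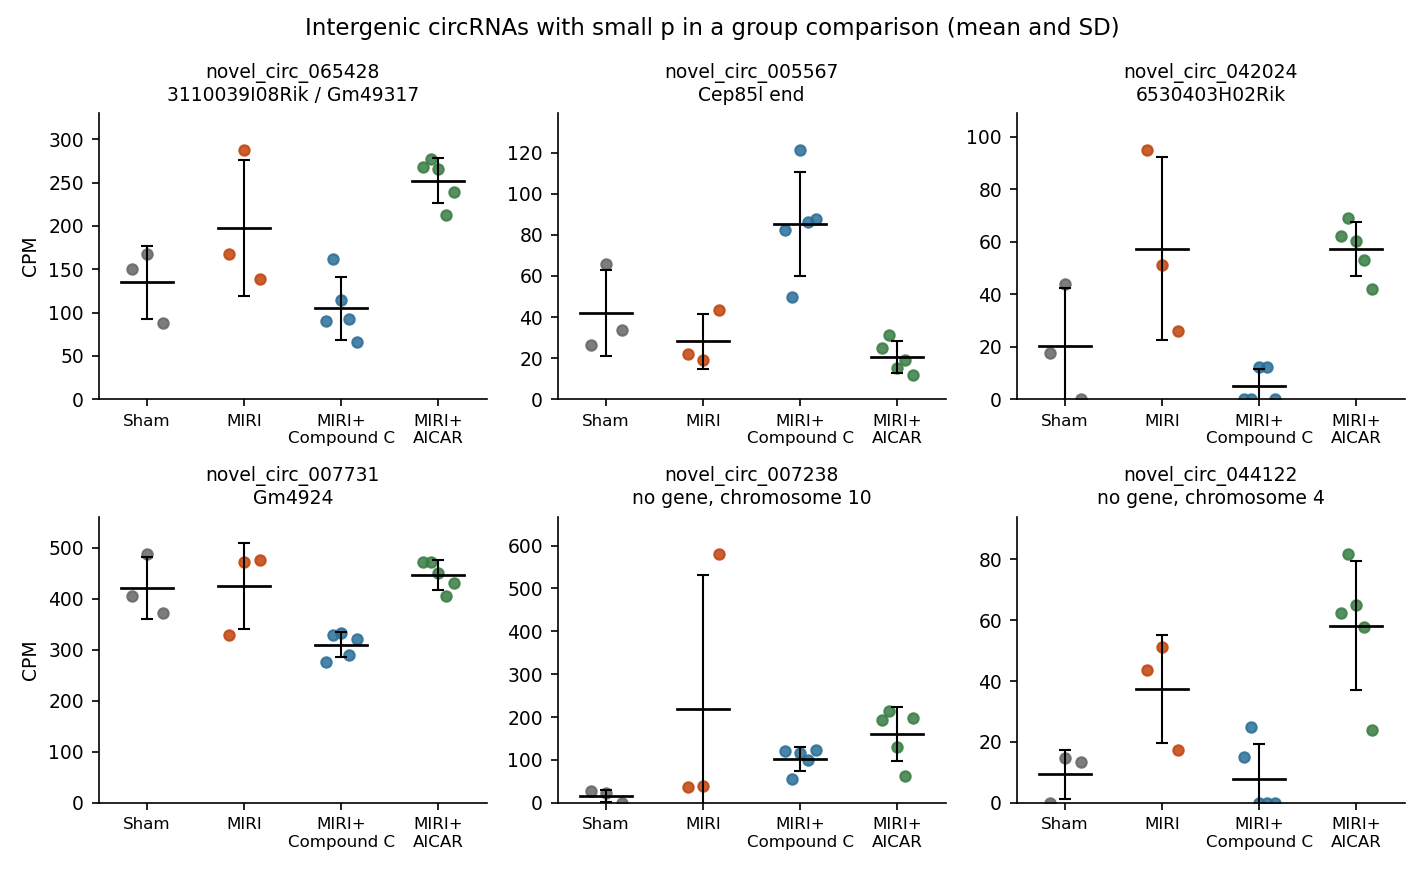
CPM by library of the 3 intergenic circRNAs called between MIRI+AICAR and MIRI+Compound C (upper row) and of 3 others with a small p in a comparison (lower row), with the group mean (line) and SD (bar); a bar is drawn only above 0. In the upper row the groups treated with AICAR and Compound C do not overlap.

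The smallest p-values in the other comparisons belonged to circRNAs that were not called. In MIRI against Sham, novel_circ_007238 on chromosome 10, with no gene on either strand, had 3, 3 and 0 counts in Sham and 5, 6 and 67 in MIRI. The MIRI libraries stood above the Sham libraries, but replicate 3 held most of the counts (log2 3.70, SE 0.89, edgeR adjusted p = 0.205). Next came novel_circ_023337 on chromosome 15, also without a gene, with 5, 0 and 6 counts in Sham and 18, 15 and 12 in MIRI, again without overlap (log2 1.96, SE 0.60, adjusted p = 0.376). The lower ones in MIRI, novel_circ_031996, novel_circ_009838 and novel_circ_065061, were at 0 in all 3 MIRI libraries, and their Sham libraries held 72, 0 and 0 counts, then 5, 5 and 3, then 0, 4 and 5.

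In MIRI+AICAR against MIRI, novel_circ_033596 over Malat1 had 23, 23 and 19 counts in MIRI and 13, 14, 9, 16 and 17 in MIRI+AICAR, lower in every library on the CPM scale (log2 -1.03, SE 0.33, edgeR adjusted p = 0.816). novel_circ_064500 in Zbtb38, a gene for a zinc finger protein that binds methylated DNA, had 5, 17 and 4 counts in MIRI and 24, 20, 23, 35 and 27 in MIRI+AICAR, higher in every library (log2 1.20, SE 0.41, adjusted p = 0.835). novel_circ_067906 had 9, 10 and 8 counts in MIRI and 2, 2, 8, 8 and 4 in MIRI+AICAR, without overlap on the CPM scale (log2 -1.30, SE 0.49, edgeR adjusted p = 0.886). novel_circ_055265 was at 0 in all 5 MIRI+AICAR libraries and had 3, 3 and 2 counts in MIRI.

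In MIRI+Compound C against MIRI, novel_circ_033543 over Malat1 was at 0 in all 5 MIRI+Compound C libraries. It had 0, 34 and 28 counts in MIRI, so the groups overlapped (edgeR adjusted p = 0.227). The Myh6 to Myh7 join novel_circ_019673 was also at 0 in MIRI+Compound C and had 0, 15 and 13 counts in MIRI (adjusted p = 0.212). Both were at 0 in MIRI replicate 1. Another join, novel_circ_019580, went the other way, with 17, 0, 17, 0 and 15 counts in MIRI+Compound C and 0 in all 3 MIRI libraries (adjusted p = 0.418). Yet another, novel_circ_019608, was at 0 in Sham and MIRI and had 0, 30, 33, 0 and 0 counts in MIRI+Compound C libraries, and 0, 16, 0, 28 and 14 in the MIRI+AICAR libraries.

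Between the treatments, the next smallest p above the 3 calls was that of novel_circ_044122, a ring on chromosome 4 with no gene on either strand, with 2, 4, 0, 0 and 0 counts in MIRI+Compound C libraries, and 10, 13, 13, 12 and 4 in the MIRI+AICAR libraries (log2 2.76, SE 0.69, edgeR adjusted p = 0.0619). The ring novel_circ_007731 had 37, 53, 55, 47 and 44 counts in MIRI+Compound C libraries, and 76, 75, 90, 84 and 72 in the MIRI+AICAR libraries, at 310.3 ± 25.1 and 447 ± 28.9 CPM. The groups did not overlap, and the difference of 0.52 on the log2 scale (SE 0.16) was called by DESeq2 but not by edgeR (adjusted p = 0.160). DESeq2 gave an adjusted p for 44 of the 181 members in this comparison, and its 4 calls were these 2 of Pvt1 and Gm4924, novel_circ_065428 and novel_circ_031996.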

How the data were processed

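The authors digested linear RNA with RNase R after removal of ribosomal RNA and made stranded libraries with dUTP, per the labels' protocols. The deposited table holds raw back-splice counts from CIRI, per the file headers, with no version or read minimum stated there. The submitters' processing notes name mm9, but GENCODE M21 exon boundaries (GRCm38) matched 88.9% of exonic starts, or 0.350% when shifted by 1 base, so positions are given as GRCm38. Sequences were read from GENCODE M21 transcripts, so only bases within annotated exons were readable.

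The members, named circRNAs and tests were chosen with earlier results of these data known. Counts were filtered by filterByExpr (minimum count 5, minimum total 15), scaled by TMM and tested in 1 edgeR 4.0.16 fit of 4 groups in R 4.3.3, with the script checked on simulated data. Alternatives were DESeq2 1.42.0, voom (limma 3.58.1), other scalings and filters, fits of 2 groups, a replicate block, and single libraries left out; 3 more were chosen after seeing the data (the high-platelet libraries left out, the Myh6 to Myh7 joins left out, genomic span for length). Single values were compared by two-sided exact permutation tests in Python 3.11.15 (thinning seed 11; sign flips over 16 libraries within a library's classes). Figures used matplotlib 3.10.9. Named circRNAs were the 10 of highest mean count, every one called, the 3 with the smallest p per comparison and direction, the members of the top 3 loci, and the longest and shortest.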

Additional observations from a re-analysis of the deposited data

Results flagged for a closer look

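In groups of 5, 2 values stood apart from the others of their group, out of 30 checked; chance flags about 1 in 20. The Nlrp5-ps ring novel_circ_055938 was at 494 CPM in MIRI+Compound C replicate 1, while the next lowest library of that group had 1080.3. The Gm9762 ring novel_circ_041393 was at 434 CPM in MIRI+AICAR replicate 2, while the next lowest library of that group had 627.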

How the results depend on the processing

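The lower share of counts in MIRI+AICAR than in MIRI+Compound C, a difference of -0.0806 percentage points, was -0.0876 to -0.0676 without single libraries, and -0.0309 with only circRNAs that passed the filter. It was 0.00347 without circRNAs overlapping a gene and 0.0142 without the Myh6 to Myh7 joins. In the same order of those last settings, MIRI against Sham was 0.0485 and 0.0340 and MIRI+Compound C against MIRI -0.0175 and -0.0199. Without the most abundant ring, MIRI+AICAR against MIRI was 0.00257. Without single libraries these 3 comparisons ran from -0.136 to 0.0149, from -0.00508 to 0.146 and from -0.0857 to 0.0654. The cause was not tested in any of these.

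Detection at equal depth reversed with at least 2 counts, to -7.93 (MIRI+AICAR against MIRI) and -24.6 (against MIRI+Compound C), and as a percent of detected circRNAs to -0.00543 and -0.254 points, with -0.0329 for MIRI against Sham. Without single libraries MIRI against Sham ran from -6.83 to 29.7 and MIRI+AICAR against MIRI+Compound C from -5.3 to 19.7. Leaving out MIRI replicate 1 and MIRI+AICAR replicate 5 together, a setting chosen after seeing the data, gave -6.83 for MIRI against Sham; all 3 circRNAs called between the treatments were also called there.

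Against intronic circRNAs the mean count difference was 3.45 and the lowest-count difference -6.04 points. By genomic span the length difference was 386 bases.

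Calls in MIRI against Sham numbered 8 without the filter, 1 with DESeq2 and 1 without the pair of libraries, and 0 to 1 without single libraries. MIRI+AICAR against MIRI gave 3 without the filter. MIRI+Compound C against MIRI gave 10 without the filter, 1 with DESeq2, 2 without the pair and 0 to 2 without single libraries. MIRI+AICAR against MIRI+Compound C gave 15 without the filter, 5 without the pair and 0 to 3 without single libraries, with 0 without MIRI+AICAR replicate 3 and 1 without MIRI+Compound C replicate 5.

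Deviations of same-numbered libraries from their group means had correlations from -0.0221 to 0.0663. Differently numbered libraries were not compared in this way, so these values cannot exclude that the numbers pair libraries. With the replicate number as a block, calls numbered 1 in MIRI against Sham, 1 between MIRI+Compound C and MIRI, 0 between MIRI+AICAR and MIRI and 3 between the treatments. Of the last, 2 were also called without the block; novel_circ_042024 was not called with it (edgeR adjusted p = 0.0511) and novel_circ_031996 was. The share difference of -0.0806 had an exact permutation p of 0.0625, the smallest that 5 pairs allow. Depth limits what was tested: 1732 of the 1913 circRNAs fell under the filter.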
